A study of Mus musculus with 37 samples.

Results

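Transcripts of 8 genes for T cell-attracting chemokines and their receptors were followed across 37 mouse tumours: the ligands Cxcl9, Cxcl10, Cxcl16, Ccl5, Ccl3 and Ccl4 and the receptors Cxcr3 and Cxcr6. They were taken by name from the 39017 genes of the count table, and all 8 passed the filter on low counts in each comparison described here. RNA had been sequenced in bulk from tumours grown for 3 weeks under the skin of C57BL/6 mice, without treatment, from clones of mouse pancreatic tumour cells. By their T cell phenotype label, 15 tumours (7 clones) were high, 4 tumours (2 clones) intermediate and 15 tumours (7 clones) low. How that phenotype was scored, the sex and age of the mice and the alleles the tumour cells carried were not given in the sources used here. A further 3 tumours have no usable phenotype label and enter no comparison. Because all tumours of a clone grew from the same cells, the unit of replication was the clone, and tumours were added up within it for tests between phenotypes. Each clone stands for 1 implanted cell population, and clones that share the number before the letter c, such as bulk_7160c2 and bulk_7160c5, may be related, although the labels do not say what that number means.

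Chemokines are small secreted or membrane-bound proteins whose gradients steer leukocytes carrying the matching receptor. CXCL9 and CXCL10 are made by many cell types under interferon and bind CXCR3 on activated T cells. CXCL16 is made as a membrane protein, chiefly by macrophages and dendritic cells, is released by the proteases ADAM10 and ADAM17, and binds CXCR6 on effector T cells and some innate lymphocytes. CCL5 is made by activated T and NK cells as well as by other cells, and CCL3 and CCL4 by macrophages, monocytes and activated lymphocytes. CCL3 and CCL5 also bind CCR1. In a bulk library, fewer cells of a type and less RNA per cell cannot be told apart.

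The 34 labelled tumours had library totals between 7.39 and 102.3 M counts (median 31.8 M). In 17 of these libraries, 4 genes of liver and heart (Myh6, Myh7, Cps1 and Serpina3k) summed to between 257.7 and 5922 CPM, the count scaled to a common library total. In the other 17 it was at most 0.539 CPM. The first kind, called here libraries with liver and heart transcripts, comprised 7 high, 2 intermediate and 8 low tumours, and 16 of the 17 carry the tumour number 1. The 17 libraries without these transcripts, 8 high, 2 intermediate and 7 low, came from 15 of the 16 clones and none carries the number 1. Results are therefore given with all libraries and with those without liver and heart transcripts alone. The T cell marker Cd3e, a chain of the T cell receptor complex, ranged over 0.29 to 4.69 CPM in high tumours, 0.79 to 6.74 CPM in intermediate tumours and 0.17 to 2.61 CPM in low tumours. All 11 genes of a T cell marker list were detected in each phenotype.

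The genes of 3 ligands lie close together on chromosome 11 of mm10 (GRCm38): Ccl5 at chr11:83525778-83530518 on the minus strand, Ccl3 at chr11:83647844-83649355 on the minus strand and Ccl4 at chr11:83662584-83664683 on the plus strand. Cxcl16 lies apart on the same chromosome, at chr11:70453983-70459984 (minus). Cxcl9 at chr5:92321347-92328079 and Cxcl10 at chr5:92346638-92348889 are neighbours on the minus strand of chromosome 5. Cxcr3 lies at chrX:101731535-101734269 (minus) and Cxcr6 at chr9:123806475-123811760 (plus). In GENCODE M21, the gene bodies of Cxcl10, Cxcl16 and Cxcr6 overlap Art3, Zmynd15 and Fyco1 on the opposite strand. Whether the counting used strand was not given in the sources used here, and reads of these pairs cannot be told apart where exons coincide.

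The upstream sequences of 3 ligands are shown because, as described further on, Cxcl9 moved with Cxcl10 over clones and Ccl3 with Ccl4. How Ccl3 related to Cxcl9 or Cxcl10 was not among the relations tested. Each run is the 250 bases before the annotated start, 5′ to 3′ on the gene's strand, from RefSeq (GRCm38.p6). Capitals mark matches to 3 searched motifs, each read on both strands. The runs cover chr5:92328080-92328329 for Cxcl9, chr5:92348890-92349139 for Cxcl10 and chr11:83649379-83649628 for Ccl3, all on the minus strand.
Cxcl9: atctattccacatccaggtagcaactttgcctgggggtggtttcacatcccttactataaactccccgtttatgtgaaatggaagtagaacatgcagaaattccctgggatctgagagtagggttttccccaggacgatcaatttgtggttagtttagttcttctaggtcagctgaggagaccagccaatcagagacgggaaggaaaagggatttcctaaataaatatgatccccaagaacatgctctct
Cxcl10: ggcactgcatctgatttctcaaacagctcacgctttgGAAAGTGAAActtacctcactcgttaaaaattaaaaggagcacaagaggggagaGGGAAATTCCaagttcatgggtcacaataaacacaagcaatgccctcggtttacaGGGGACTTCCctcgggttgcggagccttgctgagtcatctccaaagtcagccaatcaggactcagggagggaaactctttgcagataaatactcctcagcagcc
Ccl3: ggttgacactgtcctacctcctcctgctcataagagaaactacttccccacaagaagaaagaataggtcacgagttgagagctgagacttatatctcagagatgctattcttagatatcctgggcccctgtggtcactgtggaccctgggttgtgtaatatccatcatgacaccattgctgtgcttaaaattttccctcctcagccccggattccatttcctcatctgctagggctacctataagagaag

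In the Cxcl10 sequence an interferon response element, read as 2 GAAA blocks with any 2 bases between them, was matched as GAAAGTGAAA, 213 to 204 bases before the start. This form occurs in 2.98% of 32851 RefSeq promoters of the same length. The NF-kB form, GGG and TTCC with any 3 bases between, was matched as GGGAAATTCC at 159 to 150 bases and as GGGGACTTCC at 104 to 95 bases before the start, and occurs in 4.65% of promoters. The GAS form TTCNNNGAA, found in 7.02% of promoters, was not matched in any of the 3 sequences. No match to the other forms was found in the Cxcl9 and Ccl3 windows, which says only that these letters are not within them. Of the 8 genes, 5 had an entry in the promoter table (Cxcl9, Cxcl10, Cxcr3, Cxcr6 and Ccl3), and a match is a description of the sequence, not evidence of binding.

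Levels differed widely among the 8 genes. Per kilobase of exon, over the 15 clones of libraries without liver and heart transcripts, Cxcl16 had the highest median at 31.5 CPM per kb, followed by Ccl3 at 29.8 CPM per kb and Ccl4 at 11.1 CPM per kb. Cxcl10 and Cxcl9 followed, with medians of 4.39 and 2.51 CPM per kb, and then Ccl5 with 1.06 CPM per kb. The receptors were lowest, with medians of 0.339 CPM per kb for Cxcr3 and 0.286 CPM per kb for Cxcr6, near the 0.273 CPM per kb of Cd3e. The ranges of neighbouring genes in this order overlapped for each pair. Behind the receptor values stand few reads: 4 to 103 counts per clone for Cxcr3 and 6 to 139 for Cxcr6, against 1646 to 6686 for Cxcl16.

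The genes also differed in how far they varied over the 15 clones of libraries without liver and heart transcripts. All but 2 of these clones are represented there by 1 tumour, so spread between tumours of a clone enters these ranges. Cxcl9 spanned 81.6-fold from the lowest to the highest of the 15 clones, the widest range of the 8, between 0.501 CPM in intermediate clone bulk_6422c5 and 40.9 CPM in high clone bulk_7160c2. Ccl3, Cxcr3, Ccl5 and Cxcr6 spanned 20.7-, 18.3-, 17.7- and 16.4-fold, Ccl4 12.4-fold and Cxcl10 10.5-fold. Cxcl16 spanned 2.92-fold and was the steadiest. Clone bulk_7160c5 held the highest level of Cxcr3, Cxcr6, Cxcl16, Ccl5 and Ccl4, while its fellow intermediate clone bulk_6422c5 held the lowest of Cxcl9, Cxcl10, Ccl3 and Ccl4. The lowest Cxcr3, Cxcr6 and Ccl5 levels were in low clone bulk_6694c2.

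**Figure D1:**
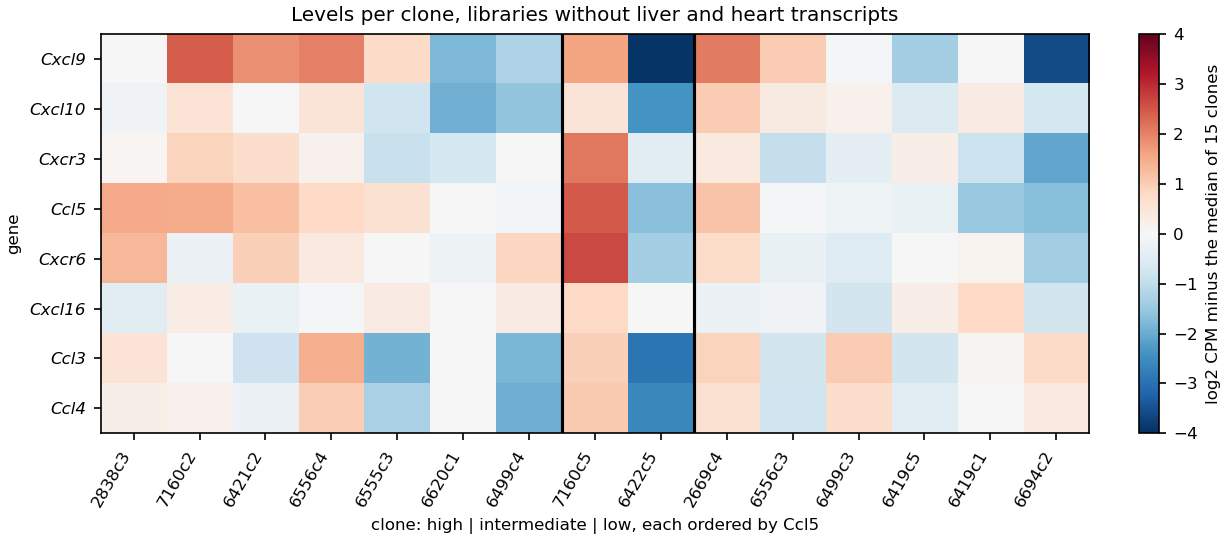
Levels of the 8 genes (rows) in 15 clones (columns), as log2 CPM minus the median of each gene over the clones, from libraries without liver and heart transcripts. Clone names are drawn without the prefix bulk_. Black lines separate 7 high, 2 intermediate and 6 low clones. Cxcl9 spans 81.6-fold and Cxcl16 2.92-fold, and for Ccl4 intermediate clone bulk_7160c5 holds the highest level and intermediate clone bulk_6422c5 the lowest.

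Between high and low clones, no member passed the test. edgeR's quasi-likelihood test with Benjamini-Hochberg adjustment over 20348 genes called 0 of the 8 members, and percent called over all genes was 0%. Before adjustment, 3 members had p under 0.05, all higher in high clones: Cxcr3, Cxcr6 and Ccl5. Of all genes, 7.45% had p under 0.05, and 4.31% were higher. In libraries without the liver and heart transcripts, again 0 members were called, and 0 had an unadjusted p under 0.05, against 6.52% of 17905 genes. DESeq2 likewise called none of the members, and 21 genes in all (0.0651%). The median log2 difference of the 8 members, high minus low, was 0.56 with all libraries and 0.31 in those without the transcripts, and the median over all genes was 0.00 in both fits.

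The interferon-inducible ligand Cxcl9 ranged in high tumours from 2.10 to 62.1 CPM with a median of 5.65 CPM, and in low tumours from 0.63 to 43.8 CPM with a median of 4.06 CPM. Clones averaged 15.1 ± 14.4 CPM in the high group and 8.81 ± 8.18 CPM in the low group (SD, n = 7 each). Clones of the groups overlapped: 2 of 7 high clones lay above every low clone, and 2 low clones lay below every high clone. The log2 difference, high minus low, was 0.79 (SE 0.73, edgeR adjusted p = 0.802) with all libraries and 0.68 (SE 0.88, adjusted p = 0.920) without the liver and heart class. Leaving out 1 clone moved it between 0.31 (without high clone bulk_6421c2) and 1.18 (without low clone bulk_2669c4) with all libraries, and between 0.33 (without high clone bulk_7160c2) and 1.39 (without bulk_2669c4) without that class. The highest single tumours were high bulk_6421c2_no1 with 62.1 CPM and low bulk_2669c4_no4 with 43.8 CPM, so high values occurred in both phenotypes.

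Cxcl10, the ligand of CXCR3 that is induced by type I as well as type II interferon, ranged from 2.63 to 20.0 CPM in high tumours (median 4.89 CPM) and from 2.21 to 25.2 CPM in low tumours (median 7.17 CPM). Clones averaged 7.79 ± 4.54 CPM in the high group and 9.40 ± 5.93 CPM in the low group (SD, n = 7 each). The log2 difference was -0.26 (SE 0.46, edgeR adjusted p = 0.917) with all libraries, -0.47 without high clone bulk_7160c2 and -0.0046 without low clone bulk_6419c1. In libraries without the transcripts it was -0.44 (SE 0.48, edgeR adjusted p = 0.899). There 3 of 7 high clones lay below every low clone, the lowest of which held 6.12 CPM. These were bulk_6620c1 with 2.63 CPM, bulk_6499c4 with 3.33 CPM and bulk_6555c3 with 5.74 CPM. With all libraries 0 high clones lay below every low clone. There 1 low clone, bulk_6422c1 with 2.315 CPM, lay below every high clone, and it has no library without the transcripts.

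Their receptor gene Cxcr3 ranged from 0.12 to 2.08 CPM in high tumours (median 0.59 CPM) and from 0.084 to 1.13 CPM in low tumours (median 0.41 CPM). With all libraries, clones averaged 0.732 ± 0.551 CPM in the high group and 0.353 ± 0.162 CPM in the low group (SD, n = 7 each), a log2 difference of 1.05 (SE 0.47, unadjusted p = 0.0393, adjusted p = 0.667, edgeR). The difference was 0.54 (SE 0.46, adjusted p = 0.869) in libraries without the transcripts and 1.37 (SE 0.61, adjusted p = 0.426) in those with them. Without high clone bulk_7160c2 it was 0.58 with all libraries, the lowest over the 16 clones left out in turn. Summed levels of the 11 T cell markers ran alongside: 8.71 to 47.4 CPM in high tumours and 4.06 to 25.5 CPM in low tumours without the liver and heart transcripts, with medians of 22.8 and 12.2 CPM. Their part in the Cxcr3 difference was not tested.

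**Figure D2:**
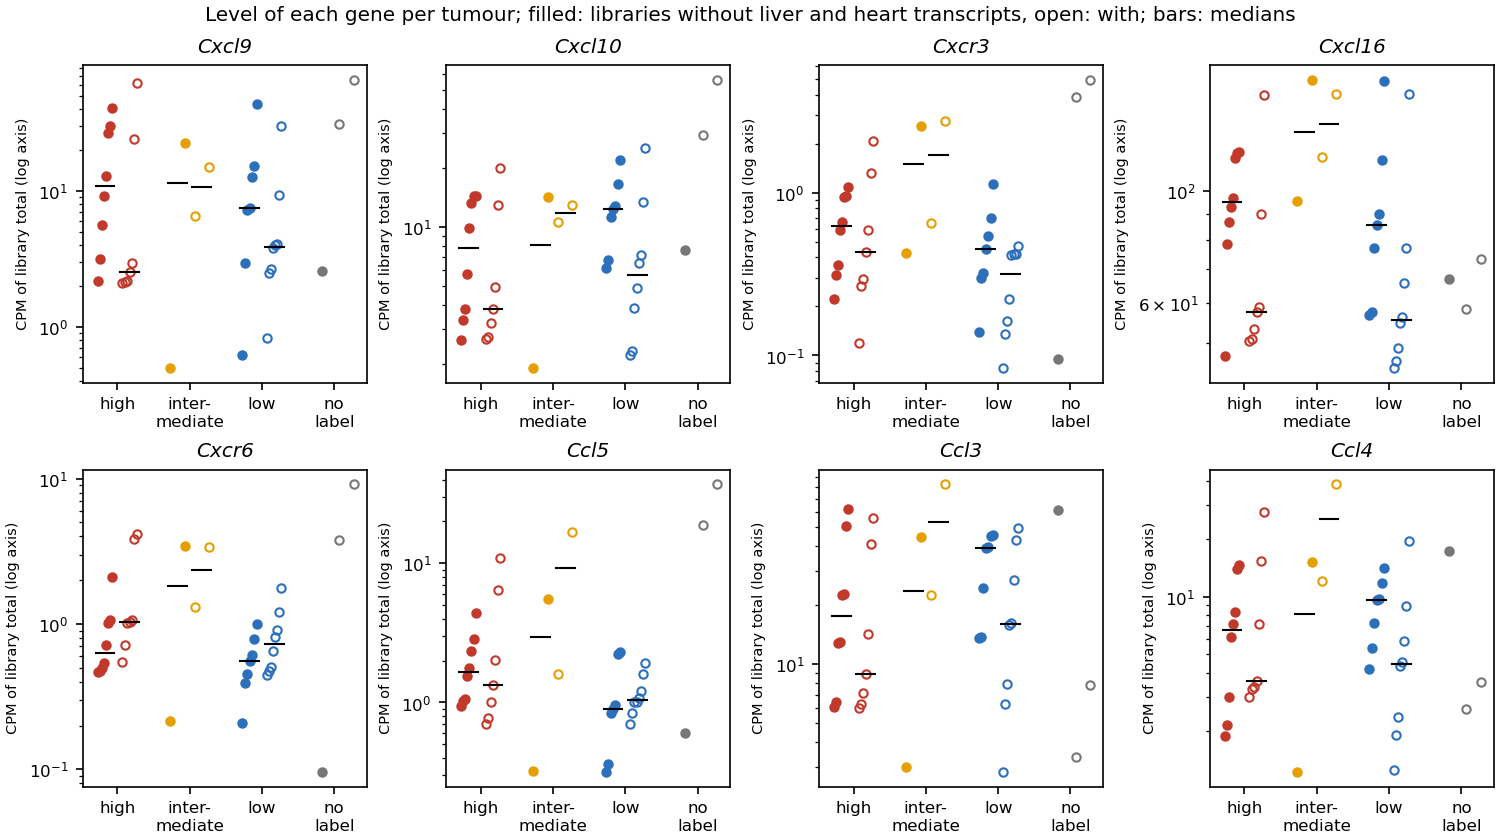
CPM of each gene (log axis) in 37 tumours, grouped as high, intermediate, low and no phenotype label. Filled points are libraries without liver and heart transcripts, open points libraries with them, and bars are medians of each class within a phenotype. High and low tumours overlap for each of the 8 genes, and 2 of the 3 tumours with no label lie above the other 35 for Cxcl10, Cxcr3 and Ccl5.

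Cxcl16 was the most even of the ligands. It ranged from 47.2 to 154.6 CPM in high tumours (median 86.9 CPM) and from 44.6 to 164.5 CPM in low tumours (median 65.6 CPM). Clones averaged 90.8 ± 26.2 CPM in the high group and 80.8 ± 36.6 CPM in the low group (SD, n = 7 each). The log2 difference was 0.17 (SE 0.23, edgeR adjusted p = 0.884) with all libraries and 0.07 (SE 0.23, adjusted p = 0.977) without the liver and heart class. It took the opposite sign, -0.01, without high clone bulk_7160c2. Of the genes for its sheddases, Adam10 differed by 0.13 (SE 0.17) and Adam17 by -0.21 (SE 0.13), high minus low, with all libraries, and neither was called.

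The receptor gene Cxcr6 ranged from 0.46 to 4.13 CPM in high tumours (median 1.01 CPM) and from 0.21 to 1.76 CPM in low tumours (median 0.61 CPM). Clones averaged 1.35 ± 0.914 CPM in the high group and 0.663 ± 0.302 CPM in the low group (SD, n = 7 each), and 3 of 7 high clones lay above every low clone. The log2 difference was 1.04 (SE 0.43, unadjusted p = 0.0264, adjusted p = 0.667, edgeR) with all libraries. Without the liver and heart class it was 0.61 (SE 0.50, adjusted p = 0.865). As with Cxcr3, the value was lowest without clone bulk_7160c2, at 0.68 with all libraries.

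Ccl5, which effector T cells and NK cells make, had the largest difference of the 8. It ranged from 0.70 to 10.9 CPM in high tumours (median 1.54 CPM) and from 0.31 to 2.30 CPM in low tumours (median 1.0 CPM). With all libraries, clones averaged 2.88 ± 2.84 CPM in the high group and 1.08 ± 0.303 CPM in the low group (SD, n = 7 each), and 4 of 7 high clones lay above every low clone. The log2 difference was 1.44 (SE 0.54, unadjusted p = 0.0174, adjusted p = 0.659, edgeR). It was 0.99 (SE 0.56, unadjusted p = 0.0952, adjusted p = 0.803) without the liver and heart class, and there 1.49 without low clone bulk_2669c4. Without high clone bulk_7160c2, which held 8.92 CPM, it was 0.78 with all libraries. In libraries free of the transcripts, high clones ran from 0.946 CPM in bulk_6499c4 to 2.89 CPM in bulk_2838c3, and low clones from 0.315 CPM in bulk_6694c2 to 2.26 CPM in bulk_2669c4. The next low clone held 0.961 CPM, so bulk_2669c4 alone of the low clones reached the range of the upper high clones. In these libraries 3 of 7 high clones lay above every low clone.

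Ccl3 and Ccl4, the macrophage inflammatory proteins 1α and 1β, did not follow this order. Ccl3 ranged from 6.02 to 62.0 CPM in high tumours (median 12.9 CPM) and from 2.81 to 49.8 CPM in low tumours (median 24.4 CPM). Clones averaged 23.7 ± 15.7 CPM in the high group and 23.5 ± 15.2 CPM in the low group (SD, n = 7 each). The log2 difference was 0.03 (SE 0.52, edgeR adjusted p = 0.993) with all libraries and -0.32 (SE 0.60, adjusted p = 0.954) without the liver and heart class, where 3 of 7 high clones lay below every low clone. These were bulk_6555c3 with 6.09 CPM, bulk_6499c4 with 6.46 CPM and bulk_6421c2 with 12.9 CPM, and the lowest low clone held 13.7 CPM. With all libraries 2 high clones lay below every low clone. In both sets of libraries 1 high clone lay above every low clone. Ccl4 ranged from 1.89 to 27.5 CPM in high tumours (median 6.18 CPM) and from 1.25 to 19.5 CPM in low tumours (median 5.89 CPM). Its log2 difference was 0.33 (SE 0.50, adjusted p = 0.903) with all libraries and -0.21 (SE 0.51, adjusted p = 0.966) without the liver and heart class, so the sign of both differed between these fits.

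**Figure D3:**
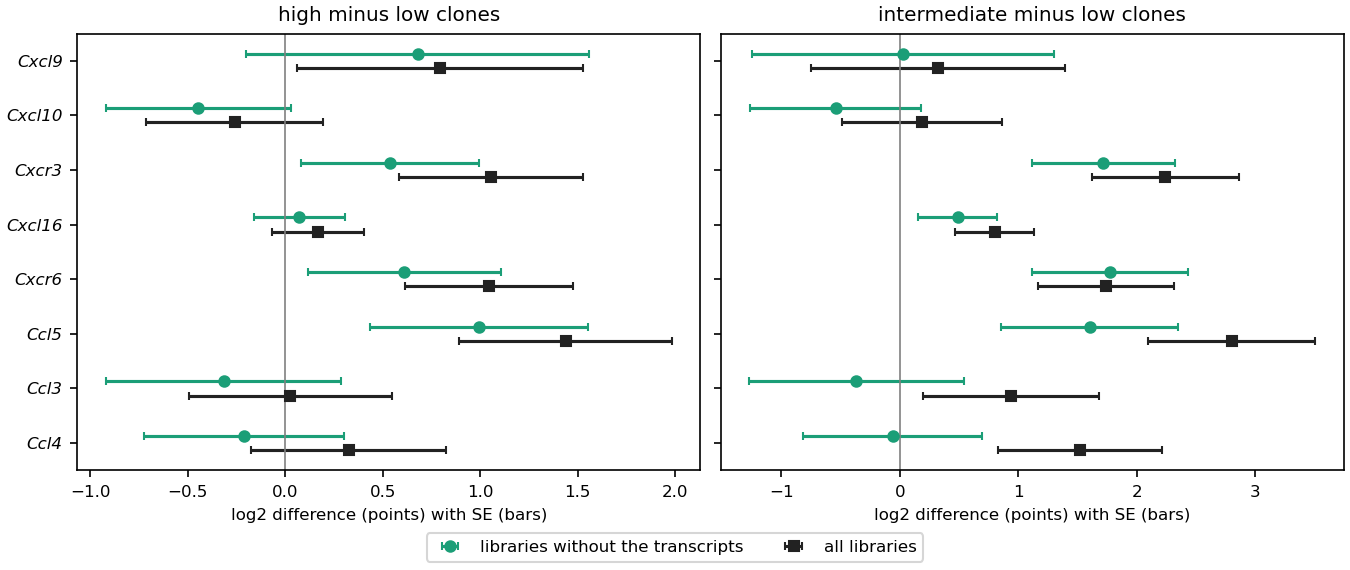
Log2 differences of the 8 genes, high minus low clones (left) and intermediate minus low clones (right), with standard errors as bars. Squares are fits on all libraries and circles fits on libraries without liver and heart transcripts. Cxcl9, Cxcr3, Cxcl16, Cxcr6 and Ccl5 lie right of 0 in both panels and both fits. Of these, Cxcl9 lies at 0.03 for intermediate minus low without the transcripts. No gene passed the adjusted threshold of 0.05 in these 4 fits.

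Partner genes were read from the same fits. The interferon gamma gene Ifng differed by 1.12 (SE 0.93) and Irf1 by 0.26 (SE 0.19), high minus low, with all libraries, and neither was called. Without the liver and heart class the values were 0.15 (SE 0.92) and 0.14 (SE 0.19). Ifng lay near the floor, with a median of 0 CPM in libraries with the transcripts and 0.07 CPM in those without them. The values that follow are from all libraries unless stated. Cxcl11, the remaining CXCR3 ligand, differed by -0.22 (SE 0.51). Ccr1, a receptor for CC chemokines, differed by 0.08 (SE 0.30). Ackr2, a receptor that removes CC chemokines without signalling, differed by -0.14 (SE 0.41), and Dpp4, a protease that trims CXCL10, by 0.05 (SE 0.20). The T cell genes Cd3e and Cd8a differed by 1.33 (SE 0.47) and 2.16 (SE 0.73), Foxp3 of regulatory T cells by 1.35 (SE 0.49), Xcr1 of cross-presenting dendritic cells by 1.19 (SE 0.40) and the macrophage gene C1qa by 0.34 (SE 0.22). Epcam, an epithelial surface gene, differed by 2.12 (SE 0.67) and the liver gene Alb by -0.18 (SE 0.49). Of the 6 genes of a tumour epithelium list, Epcam among them, 3 were higher and 3 lower, with a median of 0.01. In libraries without the transcripts 2 of these epithelium genes were higher and 4 lower, with a median of -0.07. Without the liver and heart class, Cd3e differed by 0.72 (SE 0.58), Cd8a by 1.93 (SE 0.86) and Foxp3 by 0.59 (SE 0.43). There Xcr1 differed by 0.85 (SE 0.46), C1qa by 0.13 (SE 0.26), Epcam by 1.96 (SE 0.85) and Dpp4 by 0.47 (SE 0.32). Alb differed by -4.35 (SE 1.75) in those libraries, where its median was 0.23 CPM.

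The rest of the chemokine system was described by lists, none of whose genes was called between high and low clones. Of 28 other chemokine ligands tested, 17 were higher and 11 lower in high clones, with a median log2 difference of 0.12. The smallest p-values belonged to Cxcl15 (-2.14, SE 0.61) and Cxcl1 (-1.08, SE 0.38), both ligands of the neutrophil receptor CXCR2 in mice, and to Ccl22 (1.34, SE 0.48), a ligand of CCR4. Of 19 other chemokine receptors, 13 were higher and 6 lower, with a median of 0.34, led by Ccr8 (1.80, SE 0.60) and Xcr1. Of 18 genes of the interferon gamma axis, 16 were higher, with a median of 0.37, against 11 of 11 T cell genes with a median of 1.33 and 8 of 9 macrophage and monocyte genes with a median of 0.34. In the libraries without the liver and heart transcripts, the medians were 0.03 for the other ligands, 0.05 for the other receptors, 0.23 for the interferon gamma axis, 0.85 for T cell genes and 0.13 for macrophage and monocyte genes. Of 8 genes of cytotoxic and NK cells, 5 were higher and 3 lower with all libraries, with a median of 0.44. Without the transcripts 3 were higher and 4 lower, with a median of -0.03. Their summed level there had medians of 4.16 CPM in high and 11.5 CPM in low tumours. The part of these cells in the Ccl5 level was not tested.

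The 2 intermediate clones stood far apart, so the comparison with low clones is given with both of them and without bulk_7160c5. Ccl5 held 16.8 and 5.58 CPM in the 2 tumours of bulk_7160c5 and 1.59 and 0.322 CPM in those of bulk_6422c5. Cxcr3 held 2.78 and 2.55 CPM in bulk_7160c5 and 0.650 and 0.429 CPM in bulk_6422c5. Clone bulk_7160c5 lay above every low clone for both genes, and bulk_6422c5 did not. With all libraries, the log2 difference, intermediate minus low, was 2.80 (SE 0.71, edgeR adjusted p = 0.132) for Ccl5, 2.24 (SE 0.62, adjusted p = 0.132) for Cxcr3 and 1.74 (SE 0.58, adjusted p = 0.144) for Cxcr6. None of the 8 members was called, and percent called over all genes was 0%. Before adjustment, 5 members had p under 0.05, all higher in intermediate clones, where 16% of all genes had p under 0.05 and 9.56% were higher.

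The same genes led in the libraries without the liver and heart transcripts, at 1.60 (SE 0.75) for Ccl5, 1.72 (SE 0.61) for Cxcr3 and 1.77 (SE 0.66) for Cxcr6, with adjusted p of 0.787, 0.637 and 0.681 (edgeR). Without clone bulk_7160c5 the differences were 0.14 for Ccl5, 0.77 for Cxcr3 and 0.52 for Cxcr6 with all libraries. They were -1.47, 0.02 and -1.20 in libraries without the transcripts, where the lone clone bulk_6422c5 was assumed to vary like the other groups. With all libraries, edgeR called Ccl5 and Cxcr3 when intermediate clone bulk_6422c5 was left out (adjusted p = 0.0266 and 0.0419, where percent called was 2.27%) and when high clone bulk_7160c2, which enters through the shared spread, was left out (adjusted p = 0.0431 and 0.0493, where it was 2.81%). In libraries without the transcripts it called Cxcr6 when bulk_6422c5 was left out, at 2.67 (adjusted p = 0.0459), where 0.781% of genes were called. Summed T cell markers followed the same split between intermediate clones, at 71.5 and 64.0 CPM in bulk_7160c5 and 23.5 and 12.7 CPM in bulk_6422c5, and their part in the difference was not tested. DESeq2 called Ccl5 and Cxcr3 with all libraries, where it called 2.93% of genes. So did edgeR with each tumour as a unit, ignoring the clone (adjusted p = 0.0239 and 0.0309, where percent called was 2.26%).

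Between high and intermediate clones no member was called either, where percent called was 0% with all libraries and 0.00559% (1 gene) without the liver and heart class. With all libraries the log2 differences, high minus intermediate, were -1.36 (SE 0.73) for Ccl5, -1.20 (SE 0.70) for Ccl4 and -1.19 (SE 0.63) for Cxcr3. That of Cxcl9 was 0.47 (SE 1.13). Both comparisons share the 2 intermediate clones, and without bulk_7160c5 the difference of Ccl5 was 1.29.

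Of the 8 members, 5 varied among clones beyond the spread between tumours of 1 clone. With library class as a term, the test of all clone coefficients over 34 tumours called 5 of 8 members (edgeR, adjusted p): Cxcl16 at 0.00476, Cxcr3 at 0.00809, Ccl5 at 0.00932, Cxcl9 at 0.0200 and Cxcr6 at 0.0281. Cxcl10, Ccl3 and Ccl4 were not called, with adjusted p of 0.0644, 0.0987 and 0.149. Over all genes 31.5% were called. Without the class term 2 members (Cxcr3 and Ccl5) were called, against 12.1% of genes, and in the 17 libraries without the transcripts, where 2 clones alone have 2 tumours each, 0 members and 1 gene (0.00526%) were called. In those 2 clones, tumours of low clone bulk_2669c4 held 12.6 and 43.8 CPM of Cxcl9 but 2.30 and 2.23 CPM of Ccl5. Tumours of high clone bulk_2838c3 held 5.65 and 9.15 CPM of Cxcl9 and 1.06 and 4.38 CPM of Ccl5, so the gene that differed more between tumours was not the same in both clones.

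Within clones, 2 members differed with library class. Cxcl16 was lower in libraries with liver and heart transcripts, by a log2 difference of -0.50 (SE 0.12, edgeR adjusted p = 0.00202), and was higher in them in 3 of 15 clones. Cxcr6 was higher in them, by 0.70 (SE 0.28, adjusted p = 0.0451), in 11 of 15 clones, and was not called when any of 9 clones was left out. Percent called over all genes was 47.5%. In the 4 libraries with the most liver and heart transcripts, from high clones bulk_2838c3, bulk_6499c4 and bulk_6555c3 and low clone bulk_6419c5, the highest level of a member was between 1.12 (Cxcl16) and 2.64 times (Cxcr3) the lowest. Cxcl9 lay between 2.16 and 2.67 CPM, Cxcl16 between 50.4 and 56.4 CPM and Ccl3 between 6.25 and 8.93 CPM. Cxcr3 lay between 0.163 and 0.430 CPM, Cxcr6 between 0.544 and 1.02 CPM and Ccl5 between 0.776 and 1.34 CPM. The other libraries of these clones, without the transcripts, held 2.98 to 12.9 CPM of Cxcl9 and 6.09 to 33.7 CPM of Ccl3 per clone. For Cxcr3 they held 0.314 to 0.699 CPM per clone, in fold no wider than the 4 libraries with the transcripts.

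Over the 15 clones of libraries without the transcripts, 16 relations were computed on log2 CPM, with permutation p-values (100000 resamples, two-sided) adjusted over the 16. Ccl3 and Ccl4 moved together (Pearson r = 0.97, adjusted p = 0.00032, the smallest the permutations can give; Spearman rho = 0.97). Their r was 0.96 without the 2 clones farthest from the median, 0.96 within high clones and 0.98 within low clones. Cxcl9 and Cxcl10 also moved together (r = 0.81, rho = 0.85, adjusted p = 0.00198), with r = 0.82 without the 2 farthest clones, 0.93 within high clones and 0.93 within low clones. Within high and within low clones, 7 and 6 in number, exact permutation left these relations at adjusted p of 0.0667 and 0.0889 for Cxcl9 with Cxcl10, and 0.0381 and 0.0889 for Ccl3 with Ccl4.

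With the T cell gene Cd3e, the receptors and Ccl5 ran closest: r = 0.87 (rho = 0.78, adjusted permutation p = 0.00048) for Cxcr3, 0.82 (rho = 0.82, adjusted p = 0.00096) for Ccl5 and 0.82 (rho = 0.70, adjusted p = 0.000853) for Cxcr6. Cxcl9 followed with r = 0.69 (rho = 0.64, adjusted p = 0.0120). Cxcl10 gave r = 0.48, Cxcl16 0.31, Ccl4 0.21 and Ccl3 0.16, none of which passed. Without the 2 clones farthest from the Cd3e median, bulk_7160c5 and bulk_6694c2, r was 0.70 for Cxcr3 and 0.69 for Ccl5. Both were still past the threshold by Pearson's r, but Cxcr3 was not by Spearman's rho (adjusted permutation p = 0.0696). Pearson's r was 0.64 for Cxcr6 and 0.58 for Cxcl9, with adjusted permutation p of 0.0549 and 0.115. Without bulk_7160c2 and bulk_7160c5 instead, r was 0.80 for Cxcr6 and 0.66 for Cxcl9, with adjusted permutation p of 0.00747 and 0.0450. By Spearman's rho these permutation p-values were 0.0229 and 0.132. Within high clones r with Cd3e was 0.65 for Ccl5 and 0.65 for Cxcr3, and within low clones 0.88 and 0.89, with adjusted exact permutation p of 0.218 and 0.0889.

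Ligands and receptors were paired less closely. Cxcl9 with Cxcr3 gave r = 0.58 (rho = 0.59, adjusted permutation p = 0.0381), which did not pass without the 2 clones farthest from the median (r = 0.47). Cxcl16 with Cxcr6 gave 0.37 (rho = 0.26, adjusted p = 0.233) and Cxcl10 with Cxcr3 0.38 (rho = 0.48). For Cxcl16 and Cxcr6 the sign differed between phenotypes, with r = -0.70 within 7 high clones and 0.53 within 6 low clones. Neither passed the adjusted exact permutation test, and the difference between them was not tested. With all libraries, 15 of the 16 relations passed by Pearson's r, where the liver and heart class was mixed into the clone sums. Fewer passed there by Spearman's rho. Among those that did not were Cxcl9 with Cxcr3 (adjusted permutation p = 0.0926) and Cd3e with Ccl3 and Ccl4 (0.134 and 0.109).

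**Figure D4:**
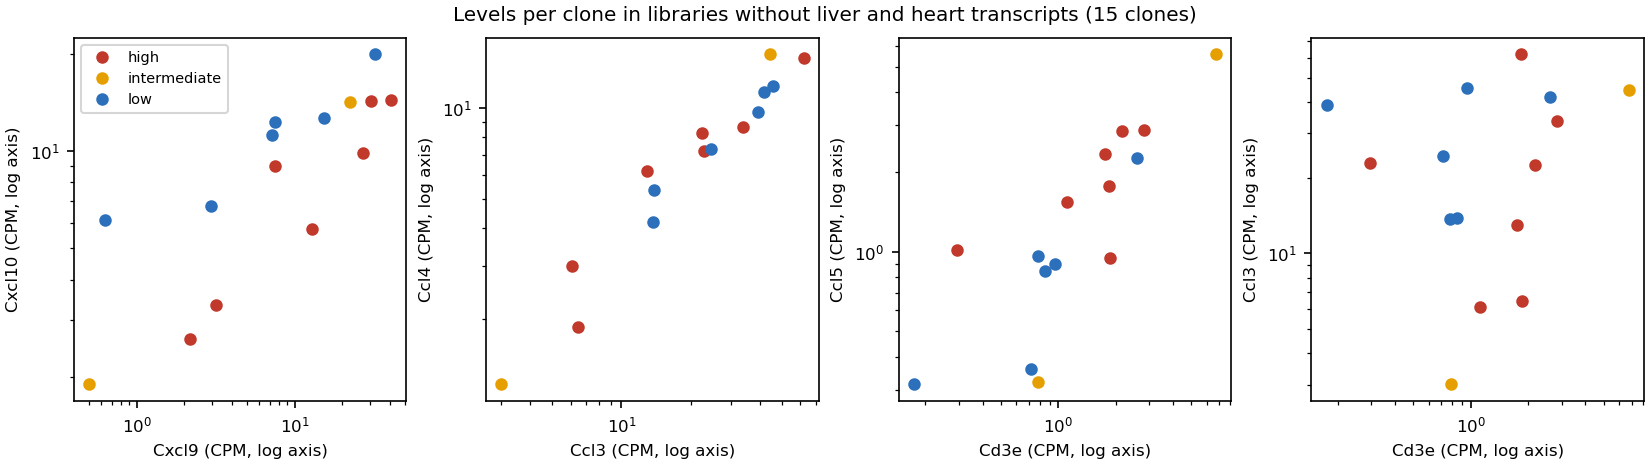
Levels in CPM (log axes) of Cxcl9 and Cxcl10, Ccl3 and Ccl4, Cd3e and Ccl5, and Cd3e and Ccl3, 1 point per clone, in 15 clones from libraries without liver and heart transcripts. The first 3 panels show r of 0.81, 0.97 and 0.82 on log2 CPM, and the last 0.16.

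The genes most like each member were ranked by Pearson's r over these 15 clones among 12946 genes, as a description. Nearest to Cxcl9 were the interferon-inducible GTPase gene Iigp1 (r = 0.98), Gbp4 (0.96) and the peptide transporter gene Tap1 (0.95), and nearest to Cxcl10 were Gbp2 (0.89), Ubd (0.87) and Gbp5 (0.86). Nearest to Ccl5 were the T cell adaptor gene Sh2d2a (0.90), Pdcd1 (0.89), which encodes PD-1, and Cd3g (0.89). Ccl3 stood nearest to the niacin receptor gene Niacr1 (0.98), then to Ccl4 (0.97) and to Cd274 (0.95), which encodes PD-L1. Ccl4 stood nearest to Ccl3 (0.97), Niacr1 (0.95) and Cd274 (0.94). Their closest other chemokine gene was the neutrophil-attracting Cxcl2, at 0.94 for Ccl3 and 0.88 for Ccl4.

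Cxcr3 was nearest to Sp110 (0.92), Naaa (0.91) and the dendritic cell receptor gene Flt3 (0.89), and Cxcr6 to Arhgap15 (0.94), Gadd45b (0.89) and Cd83 (0.87). Cxcl16 was nearest to Ramp1 (0.91), Gpr128 (0.89) and Pstpip1 (0.84). Among 34 other chemokine genes, Ccr2 was one of the 2 closest to both Cxcr3 and Cxcr6 (0.75 for each). Ccl22 was the closest to Ccl5 (0.76), Ccl12 to Cxcl9 (0.75), Ccrl2 to Cxcl10 (0.73) and Pf4 to Cxcl16 (0.66). These lists of neighbours shared no gene between the Cxcl9 and Cxcl10 pair and the Ccl3 and Ccl4 pair.

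Count ratios within a library do not depend on its scaling. A set of 6 ratios was chosen after the levels had been seen, and compared between high and low clones by an exact two-sided permutation test adjusted over the 6. Cxcl9 to Cxcl10 ran from 0.836 to 2.84 in high clones (median 2.13) and from 0.103 to 1.61 in low clones (median 0.631), in libraries without liver and heart transcripts. The mean log2 ratio was 1.47 higher in high clones (n = 7 and 6, exact p = 0.0303, adjusted p = 0.0909), and 4 of 7 high clones lay above every low clone. Ccl5 to Ccl3 ran from 0.0285 to 0.254 in high clones (median 0.127) and from 0.00805 to 0.0703 in low clones (median 0.0369). That is a log2 difference of 1.79 (exact p = 0.0256, adjusted p = 0.0909), with 5 of 7 high clones above every low clone. Neither passed after adjustment. With all libraries the adjusted exact p was 0.136 and 0.182.

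None of the other ratios passed either. Ccl3 to Ccl4 had medians of 3.16 in high and 3.52 in low clones (exact p = 0.312). Per T cell transcript, Cxcr3 to Cd3e had medians of 0.361 in high and 0.459 in low clones (exact p = 0.555), and Cxcr6 to Cd3e 0.489 in high and 0.615 in low clones (exact p = 0.593). Cxcl16 to the macrophage gene C1qa had medians of 0.398 in high and 0.422 in low clones (exact p = 0.762).

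**Figure D5:**
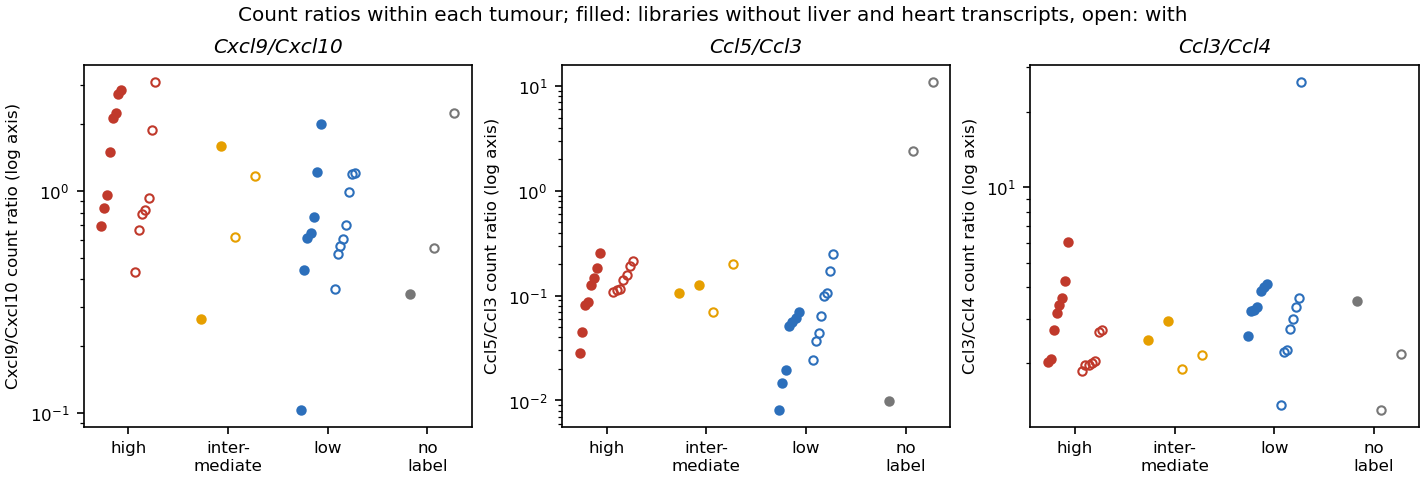
Count ratios of Cxcl9 to Cxcl10, Ccl5 to Ccl3 and Ccl3 to Ccl4 within each tumour (log axes), by phenotype. Filled points are libraries without liver and heart transcripts and open points libraries with them. High and low tumours overlap in each panel, and 1 low tumour stands apart at a Ccl3 to Ccl4 ratio of 26.3.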

How the data were processed

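The deposited table holds whole-number read counts per gene, 1 column per tumour, which the authors had not normalised, judged from the values. The submitters' processing notes name STAR, featureCounts and mm10. Tool versions, the gene models, strandedness and the handling of reads that match more than 1 gene were not given in the sources used here. Coordinates and exon lengths come from GENCODE M21 (GRCm38), which holds 37693 of the 39017 identifiers. Promoter sequences come from RefSeq (GRCm38.p6).

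Counts of the 34 tumours with a phenotype label were summed per clone and tested by the quasi-likelihood test of edgeR 4.0.16 in R 4.3.3, after TMM scaling and edgeR's own low-count filter, with 1 coefficient per phenotype over 16 clones. P-values were adjusted by Benjamini-Hochberg over all genes tested, with a threshold of 0.05. DESeq2 1.42.0 was an alternative. Standard errors are the absolute log2 difference divided by the square root of F. Printed levels are CPM of the library total without TMM. Clone and library class were tested on counts per tumour. Libraries with over 10 CPM of Myh6, Myh7, Cps1 and Serpina3k together form the class with liver and heart transcripts, a rule from an earlier look at these data. Relations used log2 CPM (TMM, prior count 2).

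The 8 members, the partner genes and the lists were chosen with earlier results of these data known. Named besides the members are 17 partners, the 3 genes most like each member and the 2 most alike other chemokine genes (at least 1 CPM), and up to 3 genes of a list with the smallest p. Not all of these, nor all of the 16 relations, are reported here. P-values of the tests between phenotypes on clone sums, of the relations and of the ratios rest on the spread between clones. Those of the clone and class tests, and of fits with tumours as units, rest on the spread between tumours. Labels do not say that tumours of a clone came from separate mice. The fits were tested on simulated data.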

Additional observations from a re-analysis of the deposited data

Results flagged for a closer look

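Dixon's test at the 95% level was applied to 40 sets of member levels, by clone for high and low and by tumour for intermediate. In 6 sets a value lay far from the rest. Chance flags about 1 set in 20 if values are normally distributed, which was not checked for these unlogged CPM. High clone bulk_7160c2 stood above the other high clones, over all libraries, for Cxcl16 (145.3 CPM, the next clone 94.9 CPM), for Ccl5 (8.92 CPM, next 3.89 CPM) and for Ccl4 (22.9 CPM, next 11.2 CPM). Low clone bulk_6419c1 stood above the other low clones for Cxcl16 (159.8 CPM, next 83.9 CPM). Low clone bulk_2669c4 stood above the other low clones for Ccl5, both over all libraries (1.71 CPM, next 1.13 CPM) and in libraries without liver and heart transcripts (2.26 CPM, next 0.961 CPM).

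Of the 3 tumours with no usable phenotype label, bulk_6883c1_no1 and bulk_6883c4_no1 lay above every low tumour for several members. Both libraries hold liver and heart transcripts (106 and 709.5 CPM), and bulk_6883c1_no1 is the deepest of all, with 161.7 M counts. Summed B cell markers ranged from 4.72 to 164.3 CPM over these 2 tumours, against at most 7.50 CPM in labelled tumours. What this has to do with the member levels was not tested. Tumour bulk_6883c1_no1 held 37.2 CPM of Ccl5, against at most 2.30 CPM in the 15 low tumours, 56.2 CPM of Cxcl10 against at most 25.2 CPM, 3.85 CPM of Cxcr3 against at most 1.13 CPM, and 3.78 CPM of Cxcr6 against at most 1.76 CPM. Tumour bulk_6883c4_no1 held 18.9 CPM of Ccl5, 29.5 CPM of Cxcl10, 4.95 CPM of Cxcr3, 9.19 CPM of Cxcr6 and 66.0 CPM of Cxcl9, where the highest low tumour held 43.8 CPM of Cxcl9. Tumour bulk_7062c3_no2 held 61.2 CPM of Ccl3, against at most 49.8 CPM in low tumours.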

How the results depend on the processing

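No member was called between high and low clones in any alternative run, and Cxcl9, Cxcl10, Cxcr3, Cxcr6 and Ccl5 kept their sign in each. Over all genes, that comparison gave 21 calls with DESeq2, 38 with tumours as units and 0 with the replicate block. In it Ccl3 took a value of -0.32 and Ccl4 of -0.21 in libraries without liver and heart transcripts, and Ccl3 of -0.069 in libraries with them, -0.20 with tumours as units and -0.15 with the replicate block.

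Between intermediate and low clones, DESeq2 called 2 members (Cxcr3 at 2.23, Ccl5 at 2.79) and 945 genes. Tumours as units gave 2 members (Cxcr3 at 1.99, Ccl5 at 2.37) and 421 genes (2.26%), with Cxcl10 at -0.043. In libraries without the transcripts Cxcl10 was -0.54, Ccl3 -0.37 and Ccl4 -0.058. Between high and intermediate clones, all-gene calls numbered 1 in libraries without the transcripts, 542 with DESeq2 and 4 with tumours as units. Cxcl10 was 0.10 and Ccl3 0.049 in libraries without the transcripts.

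With the tumour number as a replicate block, 3 members were called between intermediate and low (Cxcr3 at 2.23, Cxcr6 at 1.69, Ccl5 at 2.51), among 874 genes (4.7%), and 18 genes between high and intermediate. The numbers do not pair the tumours by design: over 146 pairs of tumours with the same number and other phenotypes, deviations correlated at -0.52 to 0.82 (median 0.38), with 128 pairs over 0.1. Over 199 pairs with other numbers they correlated at -0.70 to 0.71 (median -0.35), with 36 over 0.1. Tumour number 1 and the liver and heart class nearly coincide.

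Leaving out each clone in turn, with all libraries or those without the transcripts, high minus low ran from -0.043 to 0.42 for Cxcl16, from -0.79 to 0.29 for Ccl3 and from -0.51 to 0.55 for Ccl4, with 0 to 1 genes called in all. Intermediate minus low ran from -4.38 to 0.99 for Cxcl9, -2.52 to 0.51 for Cxcl10, 0.024 to 2.94 for Cxcr3, -1.20 to 2.67 for Cxcr6, -1.47 to 3.67 for Ccl5, -3.23 to 1.64 for Ccl3 and -2.69 to 2.18 for Ccl4, with 0 to 2 members and 0 to 567 genes called. High minus intermediate ran from -0.31 to 5.06 for Cxcl9, -0.77 to 2.08 for Cxcl10, -1.93 to 0.52 for Cxcr3, -2.06 to 1.81 for Cxcr6, -2.24 to 2.47 for Ccl5, -1.61 to 2.92 for Ccl3 and -1.85 to 2.48 for Ccl4, with 0 to 5 genes called. For these genes, the ends of both comparisons were reached without bulk_7160c5 or without bulk_6422c5. The class difference of Ccl4 ran from -0.32 to 0.023, and 1 to 2 members were called. The cause of these shifts was not tested.

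Clone differences were called for 2 members without the class term, 0 in libraries without the transcripts and 8 without the count filter. Of the 16 relations, 15 passed by Pearson's r with all libraries, more than in the main setting. Without the 2 farthest clones 4 passed, fewer than in the main setting, and Cd3e with Cxcl16 gave r = -0.24.

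Depth limits Cxcr3 and Cxcr6 most, with as few as 4 and 6 counts in a clone.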

Other observations

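In 2 of the unlabelled tumours the ligands did not all stand at the same end. Tumours bulk_6883c1_no1 and bulk_6883c4_no1 held 3.38 and 7.89 CPM of Ccl3 and 2.60 and 3.61 CPM of Ccl4, in the lower part of the range of the labelled tumours, beside the high Ccl5 and Cxcr3 described above. Their Cd3e levels were 5.67 and 13.1 CPM and their Cd8a levels 8.47 and 31.1 CPM. Tumour bulk_7062c3_no2 showed the opposite order, with 0.60 CPM of Ccl5, 0.095 CPM of Cxcr3 and 0.095 CPM of Cxcr6 beside 61.2 CPM of Ccl3 and 17.3 CPM of Ccl4.

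In the shallowest library, low tumour bulk_6499c3_no1 with 7.39 M counts, Ccl3 had 368 counts and Ccl4 14 counts, a ratio of 26.3. In the other tumour of that clone the counts were 1522 and 394, a ratio of 3.86, and over the remaining 36 tumours the ratio of these neighbouring genes reached 6.04 at most.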
